A study of Peromyscus maniculatus with 6 samples.

Results

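Aminoacyl-tRNA synthetases were compared between control and endoplasmic reticulum (ER) stressed cultures of deer mouse fibroblasts. The enzymes of the cytosol were set beside those of the mitochondrion. The members are 36 gene symbols taken by name from the deposited count table, of which 33 have a row among its 24281 genes. These are 19 of 20 cytosolic or dual enzymes and 14 of 16 mitochondrial enzymes, the latter carrying symbols that end in 2. The symbols Iars, Fars2 and Tars2 found no row and these genes are not analysed here. All 33 members found passed the filter on low counts, as did 13503 genes of the whole table.

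Ear fibroblasts were cultured from BW stock deer mice, Peromyscus maniculatus, aged 4 weeks. The 3 animals were BW35770, BW35772 and BW35773. A control culture and a culture exposed to tunicamycin for 5 h were sequenced from every animal, giving 6 libraries. The label gives the concentration as 5 mg per mL, a value not checked here, and the labels do not name what the control wells received. Each animal is 1 primary culture in each condition, so the replicates are animals and the spread includes differences between cultures.

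An aminoacyl-tRNA synthetase joins an amino acid to its transfer RNA, the step on which the accuracy of translation rests. Most amino acids have separate nuclear genes for a cytosolic and a mitochondrial enzyme, while glycyl- and lysyl-tRNA synthetase (Gars and Kars) serve both compartments from 1 gene each. Several cytosolic enzymes sit together in the multi-tRNA synthetase complex with the scaffold proteins encoded by Aimp1, Aimp2 and Eef1e1. Tunicamycin blocks N-linked glycosylation, which activates the ER kinase PERK and raises the transcription factor ATF4, whose known targets include genes of amino acid supply and several cytosolic synthetases.

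Libraries held 37852385 to 49352126 counts on genes. Counts per library ran from 2035 to 53282 for cytosolic members and from 155 to 5342 for mitochondrial ones, so counting error alone reached 8.03% at the lowest member, Mars2. Levels are given as CPM, the library-scaled read count after TMM normalisation. Atf4 served as the check that the treatment acted, with 187 ± 23.2 CPM in controls and 1036 ± 107 CPM with tunicamycin (SD, n = 3). Of 11 fibroblast markers found, 0 were called in edgeR. At an unadjusted p under 0.05 none passed without the animal block, while with the block Col3a1, Pdgfra, Lum and Twist1 passed on the lower side and Fbn1 on the higher. How many of all genes pass that unadjusted cut was not counted. Lower in every animal were 5 of the 11, where 2935 of all 13503 genes tested were. The summed level of the 11 ran from 15550 to 21670 CPM in controls and 16070 to 20930 CPM with treatment. Vim, the largest part of that sum, ran from 7494 to 9763 CPM, but some single markers varied by animal. Thy1 stood at 752 and 827 CPM in the libraries of BW35770 and 58.1 to 118 CPM in the other 4. Col3a1 stood at 500 and 420 CPM in BW35770 and 1052 to 1482 CPM in the other 4. Cartilage markers varied by animal, at 1867 and 2073 CPM in the libraries of BW35770 and 6125 to 8877 CPM in the other 4. Among them Sox9 was lower with treatment (log2 fold change -0.35 ± 0.14, edgeR adjusted p = 0.278). By animal (BW35770, BW35772, BW35773) its change was -0.0055, -0.56 and -0.47. Its groups were barely apart, with BW35770 at 238.6 CPM in control and 237.7 CPM with treatment. The 5 keratinocyte markers found summed to 4.78, 9.40 and 23.0 CPM in controls and 2.65, 4.12 and 13.1 CPM with treatment, with Krt1 at 0 counts throughout. Krt14, which makes up most of that sum, was called lower in the blocked fit (log2 fold change -1.04 ± 0.18, edgeR adjusted p = 0.02) and not in the unblocked one (adjusted p = 0.622). Of 4 immune markers found only 1, the macrophage marker Cd68, passed the filter on low counts, and Cd3e had 0 counts throughout. The 4 summed to 175.2, 122.0 and 86.3 CPM in controls, nearly all of it Cd68, so the other immune markers were close to absent. Cd68 was lower in every animal, at 175.2, 122.0 and 86.1 CPM in controls and 153.0, 69.6 and 68.6 CPM with treatment, and was not called. The part of these markers in the results was not tested. In bulk RNA fewer cells of a type and less RNA per cell cannot be told apart.

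Calls in the cytosolic set were all upward, and the mitochondrial set held 1. Of 19 cytosolic or dual members 7 rose and 0 fell, and of 14 mitochondrial members 1 rose and 0 fell (edgeR quasi-likelihood test, adjusted p under 0.05 over all genes tested). Over all 13503 genes tested, 1.78% were called higher and 0.792% lower. Cars, Aars and Yars rose by 2.58- to 3.24-fold, Sars and Gars by 1.90- to 1.98-fold, and Eprs and Tars by 1.55- to 1.69-fold. The mitochondrial exception was Ears2, at 1.88-fold. The fit with the animal as a block called the same 8 members and no others, against 3.07% of all genes called higher and 2.4% called lower. At an unadjusted p under 0.05, 12 cytosolic members were higher and 0 lower, and 1 mitochondrial member was higher and 0 lower. The share of all genes at this unadjusted cut was not counted, so these counts have no background beside them. DESeq2, which called 5.01% of all genes higher and 2.97% lower, called 9 cytosolic members and 1 mitochondrial member higher and 0 lower. The corresponding shares in limma-voom were 1.61% and 0.77%, and it called 7 cytosolic and 0 mitochondrial members higher and 0 lower.

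The median log2 fold change was 0.36 over the cytosolic members and 0.12 over the mitochondrial ones, beside -0.010 over all genes tested. By animal (BW35770, BW35772, BW35773) the median of the cytosolic members was 0.36, 0.40 and 0.43 and that of the mitochondrial members 0.016, 0.059 and 0.20. All 3 treated libraries lay above all 3 controls for 12 of 19 cytosolic and 3 of 14 mitochondrial members, where 12.3% of all genes did so. All treated libraries lay below all controls for 0 members of either kind, where 9.98% of all genes did so. The mitochondrial median was 0.19 without the tunicamycin library of BW35772, and the count of cytosolic members called was 3 without the BW35772 control, the BW35773 control or the treated BW35770 library, and in the blocked fit without BW35770. In each of the 3 animals 14 cytosolic and 5 mitochondrial members were higher, and 0 and 2 were lower. Of all 13503 genes tested, 2791 (20.7%) were higher in each animal and 2935 were lower in each.

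**Figure D1:**
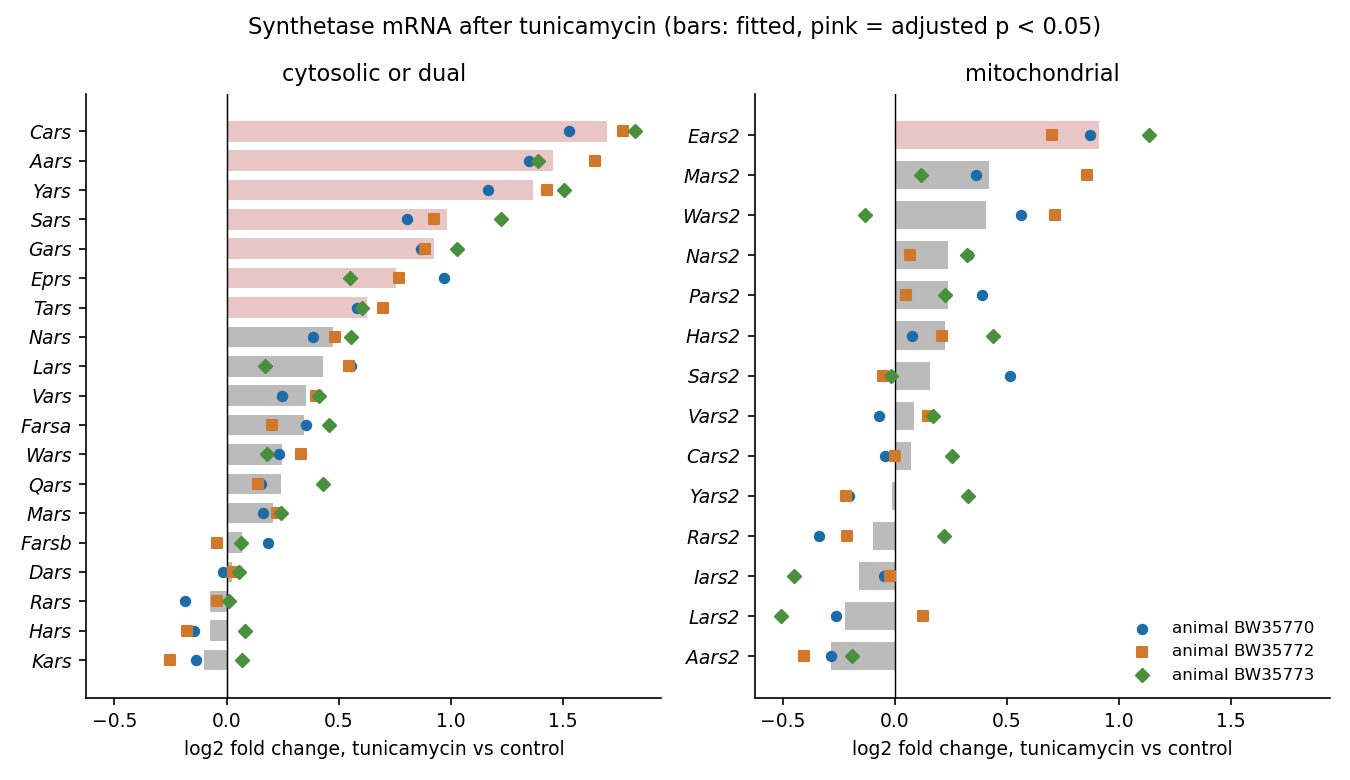
Log2 fold change of each synthetase gene (x axis), tunicamycin against control, for 19 cytosolic or dual members (left) and 14 mitochondrial members (right). Bars are fitted values, pink where the adjusted p is under 0.05, and points are the 3 animals. Cars, Aars and Yars stand beyond 1 in every animal, and Ears2 is the only mitochondrial bar in pink.

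The enzymes for cysteine, alanine and tyrosine rose most. Cars, which charges cysteine tRNA (ENSPEMG00000009377, scaffold KI615404.1, bases 6081675 to 6134820, 24 exons), stood at 105.6, 81.0 and 81.5 CPM in the controls of BW35770, BW35772 and BW35773 and at 304.8, 276.4 and 288.8 CPM with tunicamycin. The groups were far apart, and the animal with the highest control also had the highest treated level. The log2 fold change was 1.70 ± 0.14 (SE, edgeR adjusted p = 0.00157). Aars, the alanine enzyme, which can also remove a wrongly attached serine (ENSPEMG00000010864, scaffold KI615356.1, bases 3887075 to 3910267, 22 exons), stood at 403.1, 326.3 and 337.6 CPM in controls and 1028, 1020 and 886.2 CPM with treatment. Its treated level was lowest in BW35773, still above every control by more than 2-fold, and the log2 fold change was 1.46 ± 0.14 (edgeR adjusted p = 0.0032). Yars, the tyrosine enzyme (ENSPEMG00000010746, scaffold KI616245.1, bases 352609 to 380640, 13 exons), went from 111.6, 93.3 and 98.9 CPM to 251.0, 251.3 and 281.0 CPM. Its log2 fold change was 1.37 ± 0.12 (edgeR adjusted p = 0.00196). These 3 genes were called under all 16 alternatives tried, with log2 fold changes between 1.33 and 1.84. In the same libraries the 6 stress response genes kept as reference gave log2 fold changes of 1.41 ± 0.11 for Asns, 1.47 ± 0.16 for Hspa5, 2.47 ± 0.15 for Atf4, 3.95 ± 0.23 for Ddit3, 4.54 ± 0.14 for Trib3 and 4.66 ± 0.14 for Chac1.

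Sars and Gars nearly doubled. Sars, whose product charges serine tRNA and also the tRNA on which selenocysteine is made (ENSPEMG00000013142, scaffold KI615437.1, bases 2898120 to 2914832, 12 exons), stood at 324.0, 246.1 and 255.3 CPM in controls and 565.9, 467.6 and 597.6 CPM with treatment. The groups did not overlap, and the rise was smallest in BW35770, whose control was highest. The log2 fold change was 0.98 ± 0.16 (edgeR adjusted p = 0.0245). Gars, the dual glycine enzyme (ENSPEMG00000019930, scaffold KI615630.1, bases 1139969 to 1173908, 16 exons), went from 426.2, 364.3 and 366.3 CPM to 778.8, 673.2 and 747.3 CPM. Its log2 fold change was 0.93 ± 0.13 (edgeR adjusted p = 0.0148), and the 3 animals differed little, at 0.87, 0.89 and 1.03. Both calls were lost when the BW35772 control, the BW35773 control or the treated BW35770 library was left out, and, with the animal as a block, without animal BW35770 (edgeR adjusted p from 0.0577 to 0.144 in these fits). The log2 fold changes stayed between 0.88 and 1.12.

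Eprs and Tars rose by less. Eprs, 1 protein that charges both glutamate and proline tRNA (ENSPEMG00000017287, scaffold KI615335.1, bases 233994 to 312234, 33 exons), stood at 165.6, 200.1 and 213.1 CPM in controls and 324.3, 341.3 and 312.0 CPM with treatment. The groups did not overlap, and here the animal with the lowest control, BW35770, had the largest rise. The log2 fold change was 0.76 ± 0.13 (edgeR adjusted p = 0.0308). Tars, the threonine enzyme (ENSPEMG00000024237, scaffold KI616415.1, bases 81849 to 101877, 19 exons), had the tightest groups, with 148.7, 141.6 and 152.5 CPM in controls and 222.5, 230.0 and 232.1 CPM with treatment. Its log2 fold change was 0.63 ± 0.10 (edgeR adjusted p = 0.0232). Eprs lost its call without any 1 of the 3 controls, without the tunicamycin library of BW35770 or BW35772, and in the blocked fit without BW35770 (edgeR adjusted p from 0.0708 to 0.282). Tars lost its call without any 1 of the controls, without the tunicamycin library of BW35770, and in the blocked fit without BW35770 (edgeR adjusted p from 0.0778 to 0.267).

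**Figure D2:**
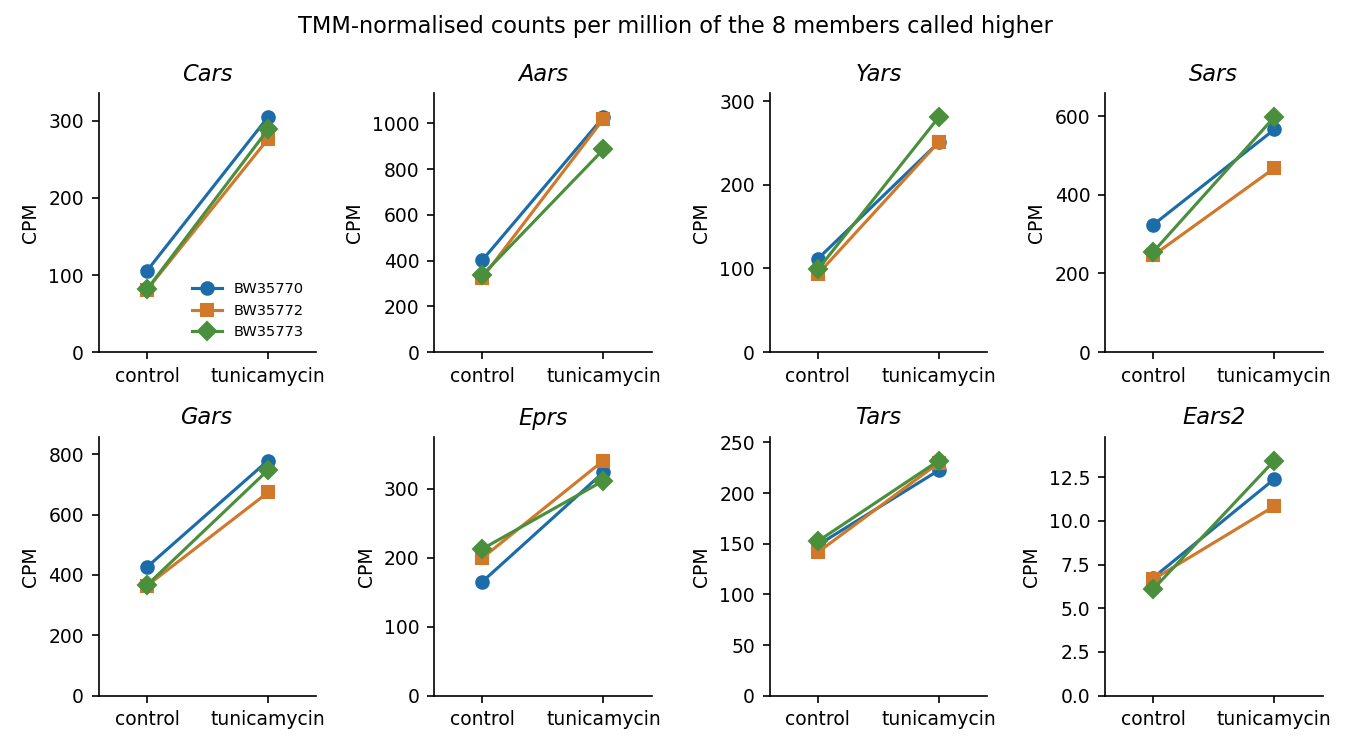
TMM-normalised CPM (y axis, from 0) of the 8 members called higher in control and tunicamycin libraries, with a line for each of the 3 animals. Every line rises, and no treated point is as low as any control point of the same gene.

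Among the other 12 cytosolic members, 7 were higher in every animal without reaching the adjusted threshold. Nars, the asparagine enzyme, stood at 317.3, 262.2 and 291.6 CPM in controls and 414.1, 367.3 and 428.6 CPM with treatment. The groups did not overlap, and the log2 fold change was 0.47 ± 0.13 (edgeR adjusted p = 0.119). With the animal as a block the adjusted p was 0.0527, and DESeq2 called the gene higher. Lars, the leucine enzyme, which also takes part in leucine sensing, had 0.43 ± 0.15, with 0.55 in BW35770, 0.55 in BW35772 and 0.17 in BW35773. Vars, for valine, had 0.36 ± 0.12 (called by DESeq2), Farsa, the alpha subunit of the phenylalanine enzyme, 0.35 ± 0.13, and Wars, for tryptophan, 0.25 ± 0.10. For these 5 genes the treated libraries lay above the controls without overlap, and the 95% interval of the log2 fold change stayed above 0. Qars, for glutamine, and Mars, for methionine, had 0.25 ± 0.12 and 0.21 ± 0.11, and their groups overlapped.

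The remaining 5 cytosolic members had log2 fold changes from -0.099 to 0.069. Farsb, the beta subunit of the phenylalanine enzyme, had 0.069 ± 0.11, with a control level of 79.1 ± 4.59 CPM and a treated level of 83.0 ± 5.02 CPM. Dars, for aspartate, had 0.025 ± 0.12 and Rars, for arginine, -0.073 ± 0.12. Hars, for histidine, had -0.076 ± 0.16. Kars, the dual lysine enzyme, stood at 478.1, 456.6 and 479.0 CPM in controls and 434.9, 383.2 and 502.4 CPM with treatment. Its groups overlapped, lower in BW35770 and BW35772 and higher in BW35773, and its fitted log2 change was -0.099 ± 0.13 (edgeR adjusted p = 0.831). The 95% interval for Kars ran from -0.41 to 0.21 and that for Gars from 0.63 to 1.23, so these intervals of the dual enzymes did not overlap. Over the 12 uncalled cytosolic members the highest upper bound was 0.78, that of Lars, which is below a 2-fold rise.

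Within the multi-tRNA synthetase complex 1 gene was called, where 1.78% of all genes were called higher. Of its 7 enzymes in the table (Eprs, Lars, Mars, Qars, Rars, Kars and Dars) 1 rose, Eprs, and the median log2 fold change was 0.21. Of the 12 cytosolic enzymes outside the complex 6 rose, with a median of 0.55. The complex enzymes summed to 1358, 1290 and 1375 CPM in controls and 1544, 1438 and 1593 CPM with treatment, so every treated sum was above every control sum. By the structural class of the catalytic domain, 2 of 8 class I members (Cars and Yars) and 4 of 10 class II members (Aars, Sars, Gars and Tars) rose, with medians of 0.30 and 0.41. Eprs holds a domain of each class and was counted in neither. Differences between these subgroups were not tested.

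In the mitochondrial set Ears2 alone was called. Ears2 charges glutamate onto the mitochondrial tRNAs for both glutamate and glutamine (ENSPEMG00000010930, scaffold KI615459.1, bases 1553204 to 1576850, 9 exons). It stood at 6.76, 6.66 and 6.11 CPM in controls and 12.4, 10.9 and 13.5 CPM with tunicamycin, without overlap. Counts behind these levels were 243 to 286 in controls and 540 to 567 in treated libraries. The log2 fold change was 0.91 ± 0.18 (edgeR adjusted p = 0.043, and 0.0338 in the blocked fit). The call was close to the threshold and was lost with no filter on low counts (0.053), in limma-voom (0.051), without any 1 control, when the treated library of BW35770 or of BW35773 was left out, and in the blocked fit without BW35770 (edgeR adjusted p from 0.0543 to 0.336 in these fits). Its log2 fold change lay between 0.82 and 1.01 throughout.

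Mars2 and Wars2 came next in size, both at a few CPM. Mars2, the mitochondrial methionine enzyme, stood at 6.57, 4.25 and 6.81 CPM in controls and 8.46, 7.73 and 7.38 CPM with treatment. Its groups did not overlap, but the rise in BW35772, at 0.86 on the log2 scale, was much larger than that in BW35773, at 0.12. The log2 fold change was 0.42 ± 0.24 (edgeR adjusted p = 0.471). Wars2, for tryptophan, stood at 4.23, 4.28 and 4.88 CPM in controls and 6.28, 7.04 and 4.44 CPM with treatment. It was higher in BW35770 and BW35772 and lower in BW35773, and its fitted log2 change was 0.41 ± 0.25 (edgeR adjusted p = 0.506). Nars2, Pars2 and Hars2, for asparagine, proline and histidine, were higher in each animal, with log2 fold changes of 0.24 ± 0.15, 0.24 ± 0.20 and 0.22 ± 0.20, and were not called.

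The rest of the mitochondrial set was near or below its control level. Sars2, Vars2 and Cars2 had log2 fold changes of 0.16 ± 0.17, 0.086 ± 0.11 and 0.072 ± 0.13. Yars2, the tyrosine enzyme, stood at 50.04, 40.3 and 43.8 CPM in controls and 43.4, 34.6 and 54.9 CPM with treatment, lower in BW35770 and BW35772 and higher in BW35773. Rars2 showed the same directions by animal, with a log2 fold change of -0.097 ± 0.18. Iars2 stood at 59.4, 56.7 and 58.6 CPM in controls and 57.4, 55.9 and 42.9 CPM with treatment, so that most of its -0.16 ± 0.14 came from BW35773. Lars2 stood at 28.0, 24.8 and 33.4 CPM in controls and 23.4, 27.0 and 23.5 CPM with treatment, and its groups overlapped (log2 fold change -0.22 ± 0.15). Aars2, for alanine, had the lowest log2 fold change of all members. It went from 27.5, 20.5 and 23.6 CPM to 22.6, 15.5 and 20.7 CPM, lower in each animal though the groups overlapped, and its fitted log2 change was -0.29 ± 0.19 (edgeR adjusted p = 0.558). Without the animal as a block, the 95% intervals of all 13 uncalled mitochondrial members included 0 and ended below a 2-fold rise. The highest upper bound was 0.98, for Wars2. Standard errors were 0.11 to 0.25 in the mitochondrial set and 0.10 to 0.16 in the cytosolic set.

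Both enzymes of 13 amino acids are in the table, with Eprs standing for both glutamate and proline. Because both genes of such a pair are read from the same libraries, scaling of library size cancels in their difference. The cytosolic gene had the larger fitted change for 9 of 13 amino acids, and in each of the 3 animals for 8. The widest gap was for alanine, where the log2 change of Aars exceeded that of Aars2 by 1.63, 2.05 and 1.58 in BW35770, BW35772 and BW35773. For cysteine the gap between Cars and Cars2 was 1.57, 1.77 and 1.57, and for tyrosine that between Yars and Yars2 was 1.37, 1.65 and 1.18. Serine followed with 0.29, 0.98 and 1.25, the most uneven of the large gaps. Leucine, proline, valine and asparagine had smaller gaps of the same sign in each animal. Of the 13 ratios of cytosolic to mitochondrial level 7 were higher in all treated than in all control libraries and 0 lower. An unpaired exact two-sided permutation test of 3 against 3 libraries cannot go below p = 0.10, and no p is given for a single ratio.

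For glutamate both genes rose, Eprs at 0.76 and Ears2 at 0.91, and their difference changed sign between animals (0.099, 0.070 and -0.59). Arginine, tryptophan and methionine also had gaps of mixed sign. Histidine was the single amino acid with the mitochondrial gene ahead in each animal, by 0.22, 0.39 and 0.35. Hars (ENSPEMG00000007577, bases 77309 to 90454, plus strand) and Hars2 (ENSPEMG00000014993, bases 68331 to 77251, minus strand) lie head to head on scaffold KI617625.1 with 57 bases between their annotated ends. These paralogs are alike in sequence, and no source used here says how the authors' counting treated reads that match several places, so the split of reads between them is uncertain. No other member has a second member as its immediate neighbour, although Eprs and Iars2 lie on scaffold KI615335.1 with 1 gene and 46188 bases between them.

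**Figure D3:**
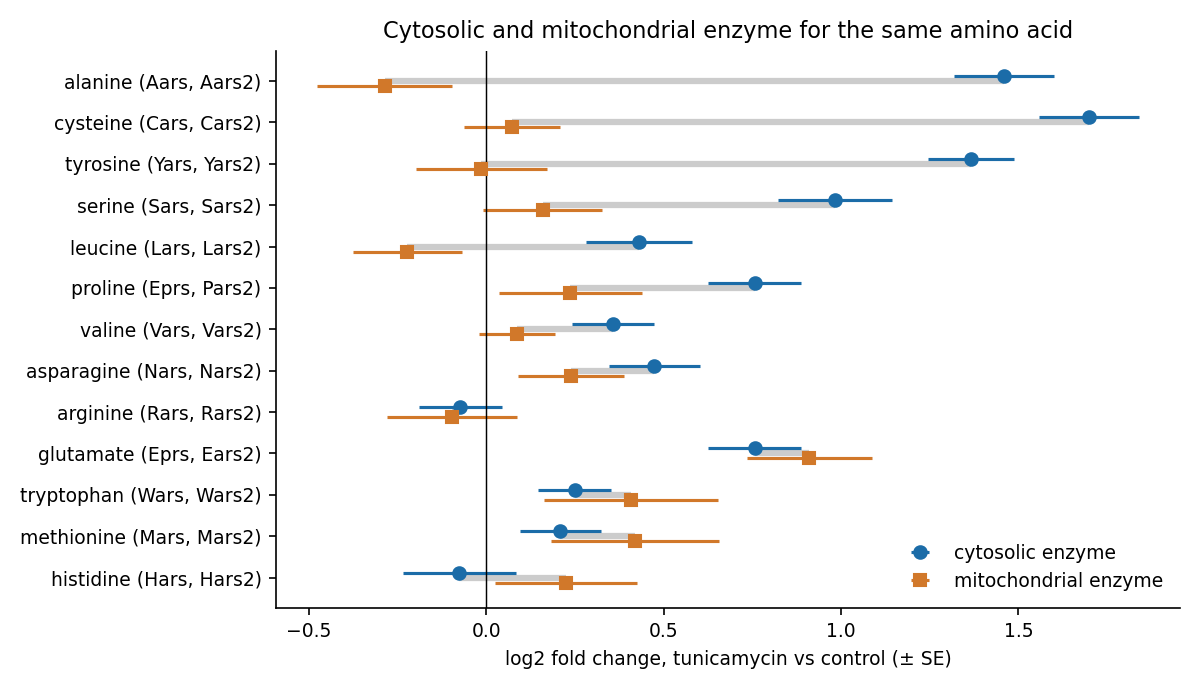
Log2 fold change with SE (x axis) of the cytosolic (circles) and mitochondrial (squares) enzyme gene for each of 13 amino acids, ordered by their difference. The gap is widest for alanine, cysteine and tyrosine, and closes or turns for arginine, glutamate, tryptophan, methionine and histidine.

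Levels can be compared between genes as CPM per kilobase of annotated exon. On this scale the cytosolic members spanned 27.7 (Cars) to 212 (Kars) in controls, with a median of 55.8, and the mitochondrial members 2.16 (Mars2) to 29.2 (Yars2), with a median of 8.14. The sets met only at their edges, where Cars at 27.7 ± 4.35 and Yars2 at 29.2 ± 3.23 did not differ beyond their spread. Kars at 212 ± 5.71 led in controls, followed by Gars at 179 ± 16.3 and Sars at 140 ± 21.7. With tunicamycin the order became Gars at 340 ± 25.1, Sars at 277 ± 34.6, Aars at 271 ± 22.04 and Kars at 198 ± 26.9, in which Sars and Aars did not differ beyond their spread. Cars moved from rank 20 of 33 in controls to rank 7 at 89.8 ± 4.41, and Yars from rank 14 to rank 6 at 105 ± 6.94. Ears2 went from 3.32 ± 0.18 to 6.25 ± 0.67 and kept a low rank, 31 in controls and 30 with tunicamycin.

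Summed per kilobase, the 19 cytosolic members gave 1511, 1335 and 1409 in controls and 2210, 2027 and 2241 with treatment, a ratio of 1.46, 1.52 and 1.59 by animal. The 14 mitochondrial members gave 143.6, 127.8 and 135.4 in controls and 142.6, 131.3 and 149.4 with treatment, a ratio of 0.99, 1.03 and 1.10. The cytosolic sum was thus 10.46 ± 0.059 times the mitochondrial sum in controls and 15.31 ± 0.27 times with tunicamycin (SD, n = 3), without overlap. Gars, Sars and Aars, the 3 highest cytosolic genes after treatment, made up 29.4% of the cytosolic sum in controls and 41.1% with treatment. They were picked by their treated level, so part of this rise follows from the pick. In controls Kars was the highest cytosolic gene. Yars2, Vars2 and Cars2, the 3 highest mitochondrial genes after treatment, made up 46.7% of the mitochondrial sum in controls and 46.0% with treatment. In controls Iars2 at 12.1 and Lars2 at 10.9 stood above Cars2 at 10.6. A share of 3 among 14 genes is not comparable with a share of 3 among 19.

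**Figure D4:**
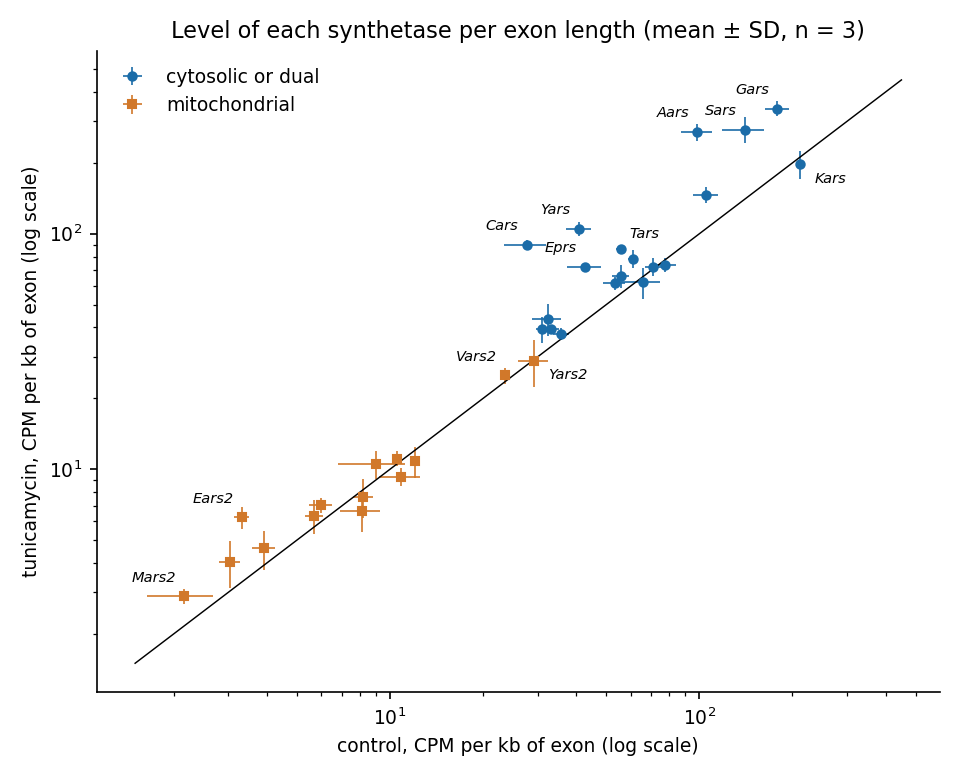
Mean level of each of the 33 members in CPM per kilobase of exon, control (x axis, log scale) against tunicamycin (y axis, log scale), with SD over 3 animals and the line of equal level. The called cytosolic genes (circles), from Cars to Gars, lie above the line, Farsb and Dars lie near it, and the means of Rars, Hars and Kars lie below it. The mitochondrial genes (squares) lie lower, Ears2 farthest above the line.

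Proteins that work beside the synthetases were followed in 6 lists of 3 to 10 genes tested, and none was called. With 1.78% of all genes called higher and 0.792% lower, a count of 0 in lists of this size is near the background and is no result about them. Of the 3 scaffold genes of the synthetase complex 0 rose and 0 fell, with log2 fold changes of -0.23 ± 0.22 for Aimp1 and -0.074 ± 0.22 for Eef1e1. Of 5 mitochondrial charging genes outside the member list 0 were called. Gatb and Gatc are subunits of the amidotransferase that turns mischarged glutamyl-tRNA into glutaminyl-tRNA after Ears2 has acted. Gatb had 0.54 ± 0.15 (edgeR adjusted p = 0.141) and Gatc -0.42 ± 0.23 (0.45), and for each the groups did not overlap. Of 4 genes of selenocysteine tRNA synthesis and use 0 were called, with 0.47 ± 0.16 for Sepsecs, which makes selenocysteine on its tRNA, and 0.21 ± 0.12 for Eefsec, its elongation factor.

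Translation factors gave a similar count. Of 3 cytosolic elongation factor genes 0 were called, Eef2 having 0.13 ± 0.16 and Eef1b2 0.096 ± 0.24. Of 10 mitochondrial translation factors 0 were called, although Mrrf, which recycles mitochondrial ribosomes, had 0.53 ± 0.12 (edgeR adjusted p = 0.0657, blocked 0.0502). Gfm2, its partner in recycling, had 0.50 ± 0.13 (edgeR adjusted p = 0.106). Of 3 genes in the list of trans-editing and synthetase-like proteins 0 were called. Tarsl2, a second cytosolic threonine enzyme, had -0.19 ± 0.12, with all treated libraries below the controls, and Dtd1, which removes D-amino acids from tRNA, -0.13 ± 0.18. At an unadjusted p under 0.05 these lists held Gatb, Sepsecs, Mrrf and Gfm2 on the higher side and no gene on the lower side. The share of all genes at that cut was not counted, so this is no result about the lists.

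**Figure D5:**
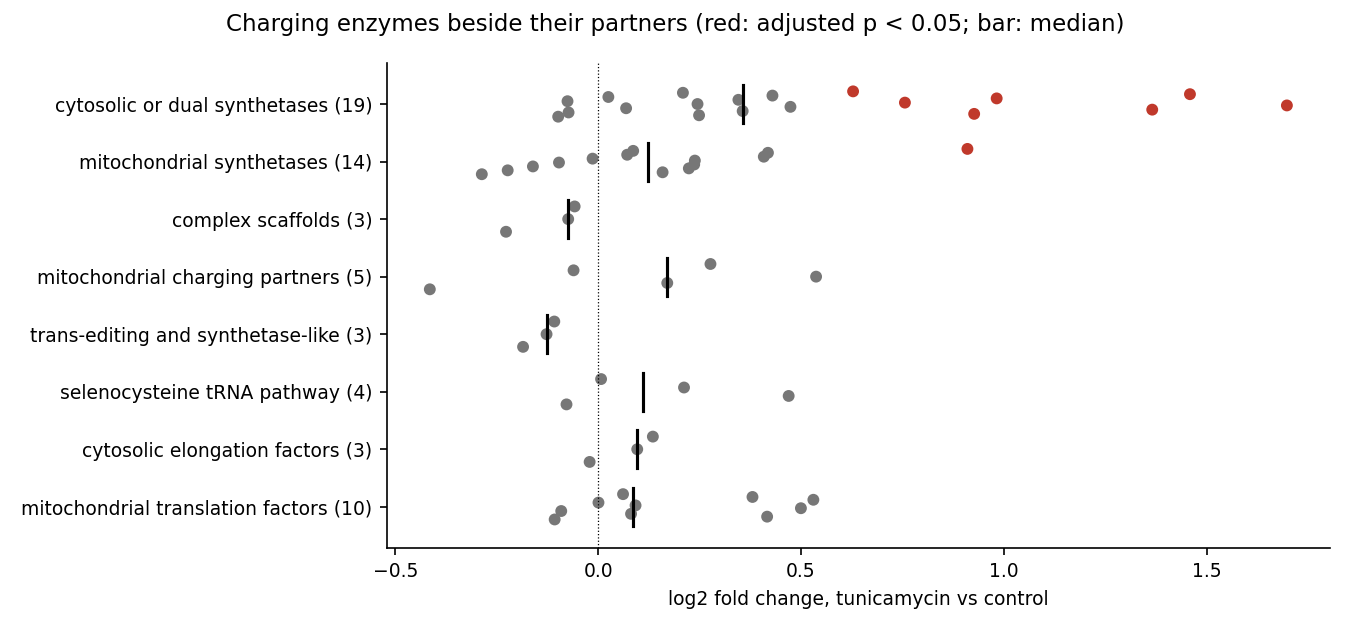
Log2 fold change (x axis) of each gene in the synthetase sets and in 6 lists of partner genes, with the number of genes in brackets, the median as a bar and called genes in red. The partner lists hold no red point, which is near the background of 1.78% of all genes called higher and 0.792% lower, and their medians lie between -0.13 and 0.17.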

How the data were processed

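RNA-seq was read from 6 libraries (3 animals, control and tunicamycin). The authors deposited whole-number counts per gene, not normalised, aligned with STAR 2.6.1 and counted with featureCounts per the submitters' processing notes. No source used here gives the genome build, annotation release or handling of multi-mapping reads. Members were matched on the table's gene names, and coordinates are as the table prints them. edgeR 4.0.16 in R 4.3.3 was fitted to the whole table (filterByExpr, minimum count 10, minimum total 15, TMM), and p-values were adjusted by Benjamini-Hochberg over 13503 genes. SE is the log2 fold change divided by the root of F, and intervals are 95%. Both come from the fit without the animal as a block, except where the blocked fit is named. Differences within an animal use log2 CPM with a prior count of 2. Titles name the animal, so libraries are paired (deviations correlated at 0.656, 0.408 and 0.217 within animals). Alternatives used DESeq2 1.42.0, limma 3.58.1, other scalings and filters, the replicate block, and left-out libraries or animals. The steps were tested on simulated data. Members and lists were chosen with earlier results of these data known. Values in every library are given for called members and for the largest and smallest changes. The other lists give the 2 smallest p-values each. The unit of the CPM-per-kilobase level is based on the deposited exon length. Promoter sequences were not used here. No library copied another (chi-square per degree of freedom 27.0 to 249).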

Additional observations from a re-analysis of the deposited data

How the results depend on the processing

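Over the 33 members and 16 alternatives, 484 results kept direction and call, 27 lost the call, 4 gained it and 13 turned sign. The count of 7 cytosolic members called higher was 9 in DESeq2 and 7 under the other scalings, filters, limma-voom and the replicate block, and with a library or animal left out lay between 3 and 9. The 3 that were called in all fits were Cars, Aars and Yars. Calls over all genes moved too: with 1 library left out, between 46 (without the control of BW35773) and 313 higher (without its tunicamycin library), and in the blocked fits with 1 animal left out, between 74 (without BW35770) and 806 (without BW35773). The 1 mitochondrial call was 0 with no filter and 0 in limma-voom, and between 0 and 1 with a library or animal left out. No member was called lower in any fit. The cytosolic median ranged from 0.31 (without the tunicamycin library of BW35773) to 0.44 (without that of BW35772). The mitochondrial median ranged from 0.095 (without the control of BW35773) to 0.19 (without the tunicamycin library of BW35772). The 13 sign changes concerned uncalled genes near 0, over left-out libraries or animals: Dars from -0.027 to 0.097, Hars from -0.15 to 0.061, Kars from -0.18 to 0.0051, Sars2 from -0.035 to 0.26, Yars2 from -0.18 to 0.15 and Rars2 from -0.25 to 0.011. The cause was not tested. The number of amino acids with the cytosolic gene ahead in every animal was 8 at a prior count of 0.5 too. The lowest counts were those of Mars2, from 155 to 404 per library, and Wars2, from 156 to 368. The part of depth in their spread was not tested.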

Other observations

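Of 25 uncalled members, 11 were higher in every animal, beside 20.7% of all genes, and 5 were lower in BW35770 and BW35772 and higher in BW35773, beside 17.1% of all genes, so the second count is near the background. Rars, Hars and Kars in the cytosolic set and Yars2 and Rars2 in the mitochondrial set were those 5. The scaffold genes Aimp1, Aimp2 and Eef1e1 took the same directions, with Aimp1 at -0.33, -0.66 and 0.17 and Eef1e1 at -0.36, -0.21 and 0.22 in BW35770, BW35772 and BW35773. Eef1b2, an elongation factor subunit, was at -0.20, -0.23 and 0.56. Wars2 and Lars2 went the other way in BW35773, at -0.14 and -0.51. These genes were picked after their values were seen, and a difference between animals was not tested, with 1 library per animal and condition.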
